A study of Homo sapiens with 16 samples.

Results

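Control hairpin cells were compared with solvent-treated cells of the same leukaemia line, so both sides of the comparison are controls. The 3 shNS libraries and the 4 DMSO libraries were taken by the names of their columns, 7 of the 16 libraries of the series. The series studied the RNA demethylase FTO in NOMO-1, a human acute myeloid leukaemia line with monocytic features, by a hairpin against FTO (shFTO) and by the inhibitors CS1 and CS2. For the DMSO cells the labels name the solvent, given for 72 h, and no virus. The shNS cells carried a control hairpin, for which the labels give the name only. The treatment protocol describes lentivirus with polybrene during centrifugation, then puromycin at 1 µg/ml from 48 h after infection for 1 week. It names lentivirus against FTO and does not describe the control virus separately, and it does not say whether hairpin cells received DMSO or were kept as a pool. Both groups were sequenced from poly(A)-enriched RNA of the same line, and the series calls the libraries of a group biological replicates. Infection, puromycin, the hairpin, the solvent, time in culture and any batch between the arms cannot be told apart in this comparison.

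A lentiviral hairpin vector enters the cell as RNA, is copied into DNA and integrates, and its transcript is cut by the cell's own microRNA machinery. Puromycin ends protein chains early on the ribosome, and only cells whose vector expresses the resistance enzyme grow on. DMSO is a polar solvent that at high doses has long been used to push some myeloid leukaemia lines towards maturity. Blast cells of monocytic leukaemia stop between a dividing precursor, rich in nucleoli and replication proteins, and a monocyte, rich in lysosomes, surface receptors and antigen presentation genes.

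Levels are in TPM, a length-corrected share of a library's total, and differences are in log2(TPM + 1), shNS minus DMSO. Means are given with the SD over the 4 DMSO and the 3 shNS libraries, and differences with their SE. Of 26830 entries, the 14951 with at least 1 TPM in at least 3 of the 16 libraries were tested. At an adjusted p below 0.05 in limma, 8462 genes passed, a background of 56.6%, of which 3434 (23.0% of genes tested) were higher and 5028 (33.6%) were lower in shNS. Most of these differences were small: 6666, or 78.8% of those that passed, were under 1.5-fold. Only 313 genes, 2.09% of those tested, passed and differed at least 2-fold, 203 higher and 110 lower in shNS. The libraries of the 2 groups did not overlap for 9331 genes, 62.4% of those tested. Read against these shares, a count of passing genes in a list says little by itself. Each list whose passing genes are counted has its median difference, to be read beside the median of -0.05 over all genes tested. Libraries of 1 group correlated at 0.991 to 0.993 across genes and libraries of the 2 groups at 0.975 to 0.978 (Pearson r of log2(TPM + 1) across genes, which are not independent). The SE and the limma p-values rest on the spread within groups over all 16 libraries, so the inhibitor and shFTO libraries also set them. For a single gene they can therefore differ from what the SD of the DMSO and shNS libraries would give. The p-values cover only the spread between libraries. Depth is unknown because the table holds no counts.

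**Figure D1:**
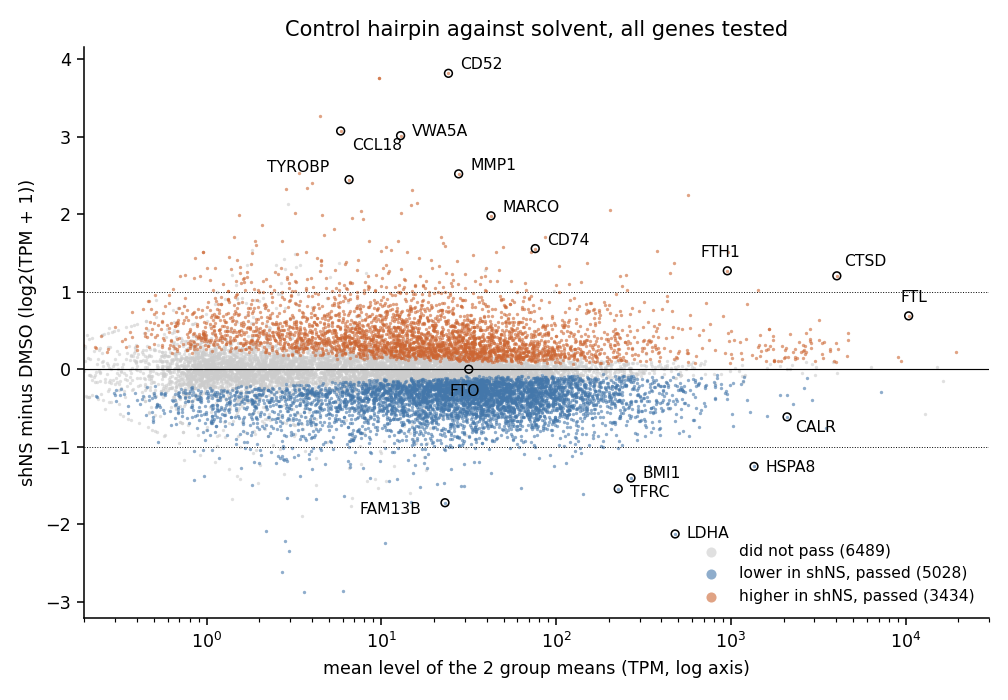
Each point is a gene tested: the x axis is the mean of the DMSO and shNS means in TPM on a log axis, and the y axis is the difference shNS minus DMSO in log2(TPM + 1), with dotted lines at 2-fold. Orange and blue points passed limma's test (3434 higher, 5028 lower in shNS); CD52 lies at the top, LDHA at the bottom right, and FTO on the zero line.

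Most of the tested genes that mark mature monocytes and macrophages stood higher in the control hairpin cells. Of 24 tested markers of monocyte and macrophage maturation, 18 were higher and 2 lower in shNS, with a median difference of 0.88. Another 4 did not pass, and the lowest member differed by -0.63. CD14, CD163, FCGR3A, MRC1 and VCAN, also on the list, did not reach 1 TPM in enough libraries and were not tested. The tested members named below all read higher in shNS, so they do not show the whole range of the list. In bulk RNA a larger share of mature cells and more of these transcripts in each cell cannot be told apart, here and for the lists that follow. CD52, a small glycoprotein anchored on the surface of leukocytes, had the largest difference among named coding genes and is not one of these markers. The gene lies at chr1:26317958-26320523 (RefSeq, GRCh38.p14). CD52 read 1.49, 2.11, 3.11 and 2.85 TPM in the DMSO libraries and 45.1, 45.5 and 47.5 TPM in the shNS libraries. Every shNS library lay far above every DMSO library, with a difference of 3.82 ± 0.18 (SE), adjusted p = 6.43e-10 by limma. TYROBP, the adaptor through which many myeloid receptors signal, read 1.04, 1.48, 1.19 and 1.66 TPM in DMSO against 11.62, 10.99 and 12.58 TPM in shNS. The groups did not overlap, and the difference was 2.45 ± 0.11, adjusted p = 3.16e-10 by limma. ITGAX, the CD11c integrin chain of macrophages and dendritic cells, was at 0.67 TPM ± 0.08 (SD, n = 4) in DMSO and 5.77 ± 0.41 (n = 3) in shNS. MARCO, a scavenger receptor of macrophages, rose from 16.5 TPM ± 0.4 to 68.2 ± 0.9.

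Within the maturation list the difference varied widely, from -0.63 to 2.45. ITGAM, the CD11b chain that pairs with ITGB2, was low in both groups, 2.2 TPM ± 0.04 against 6.69 ± 0.21. ITGB2 itself, which is not on that list, differed by 0.29 only. CD68, a lysosomal protein used to identify macrophages, was at 83.6 TPM ± 6.5 in DMSO and 218 ± 3 in shNS. LYZ, the secreted enzyme lysozyme, was at 75.3 ± 5.7 and 163 ± 3, and GPNMB, a glycoprotein of lysosome-rich macrophages, at 292 ± 9 and 564 ± 12. VCAN was listed at 0 in all 7 libraries. The 10 defining myeloid genes tested, which share members with the maturation list, counted 6 higher and 1 lower, with a median of 0.55. CD4 and CSF3R, receptors of monocytes and of granulocyte precursors, were among the higher ones with differences of 0.82 and 0.94. CD33 and PTPRC, the surface proteins of myeloid and of all white cells, were at 67.9 and 69.8 TPM and at 81.7 and 82.4 TPM in DMSO and shNS. MPO and CD14, a granule enzyme and a monocyte receptor of the same list of 12 defining genes, stayed below 1 TPM in every DMSO and shNS library and were not tested, so the defining markers were present only in part. Markers of other lineages were low or at 0: the 12 lymphocyte genes in the table, of which 6 were tested, summed to 16.9 to 18.0 TPM in DMSO and 24.7 to 25.7 TPM in shNS, the 15 epithelial, fibroblast and kidney-cell genes, 4 of them tested, to 6.5 to 6.9 and 6.1 to 7.2 TPM, and the 14 erythroid and megakaryocyte genes, 3 of them tested, to 13.0 to 15.0 and 15.7 to 17.4 TPM. CD3E, EPCAM and HBA1 were listed at 0 in all 7 libraries. Of the lymphocyte genes, CD22, a lectin receptor best known from B cells, carried the difference, with 2.66 TPM ± 0.32 in DMSO and 13.0 ± 0.4 in shNS.

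Antigen presentation genes went the same way. MHC class I molecules show peptides made inside the cell, and class II molecules show peptides from the lysosome, loaded with the help of the invariant chain CD74. Of 6 tested class II genes, 5 were higher in shNS, with a median difference of 0.95. CD74 read 36.7, 36.9, 37.9 and 40.7 TPM in DMSO against 111, 115 and 116 TPM in shNS, a difference of 1.56 ± 0.05. Its groups lay apart, with each shNS library well above each DMSO library. CIITA, the coactivator that turns the class II genes on, was at 4.31 TPM ± 0.51 and 8.91 ± 0.38. HLA-DRB5, a class II beta chain, was at 14.4 TPM ± 1.0 and 39.5 ± 1.8, a value that is uncertain because its reads can be shared with other DRB genes. Of 10 tested class I genes, 8 were higher and 1 lower, with a median difference of 0.37. HLA-E, which displays leader peptides to natural killer cells, differed by 0.98 ± 0.06 and HLA-C by 0.85 ± 0.04, and both can share reads with related HLA genes. B2M, the light chain common to all class I molecules, stood at 2517 TPM ± 13 in DMSO and 3898 ± 67 in shNS. The single lower member was CALR, the chaperone calreticulin.

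Lysosomal enzymes and iron storage proteins were higher and the transferrin receptor was lower in control hairpin cells. Of 29 tested lysosome and autophagy genes, 19 were higher and 6 lower, with a median difference of 0.21. CTSD, the main aspartic protease of the lysosome, read 2307, 2325, 2520 and 2617 TPM in DMSO against 5466, 5730 and 5688 TPM in shNS. All shNS libraries lay above the DMSO range, and the difference was 1.21 ± 0.05, adjusted p = 2.01e-10 by limma. CTSH, a cysteine protease, NPC2, which hands cholesterol out of the lysosome, and HEXA, which cuts gangliosides, differed by 1.12, 0.86 and 0.73. LAMP1, the most abundant membrane glycoprotein of the same organelle, was lower, at 514 TPM ± 13 against 410 ± 7.

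Iron genes differed by opposite signs. Ferritin, built of FTH1 and FTL, stores iron, and TFRC imports it. In DMSO FTH1 read 533, 526, 568 and 610 TPM, and in shNS it read 1310, 1382 and 1353 TPM. The difference was 1.27 ± 0.06, and no shNS library came near the DMSO range. FTL, at 7962 TPM ± 476 in DMSO and 12826 ± 411 in shNS, differed by 0.69 ± 0.05. Both have processed pseudogenes, so their levels depend on how the authors assigned shared reads. TFRC fell from 332, 338, 331 and 351 TPM in DMSO to 111, 118 and 116 TPM in shNS, a difference of -1.54 ± 0.12. It was the largest fall of the 28 tested antioxidant and metal genes, of which 6 were higher and 14 lower with a median of -0.19. GCLM, the regulatory subunit for glutathione synthesis, was also among the lower ones, with a difference of -0.97 ± 0.07.

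**Figure D2:**
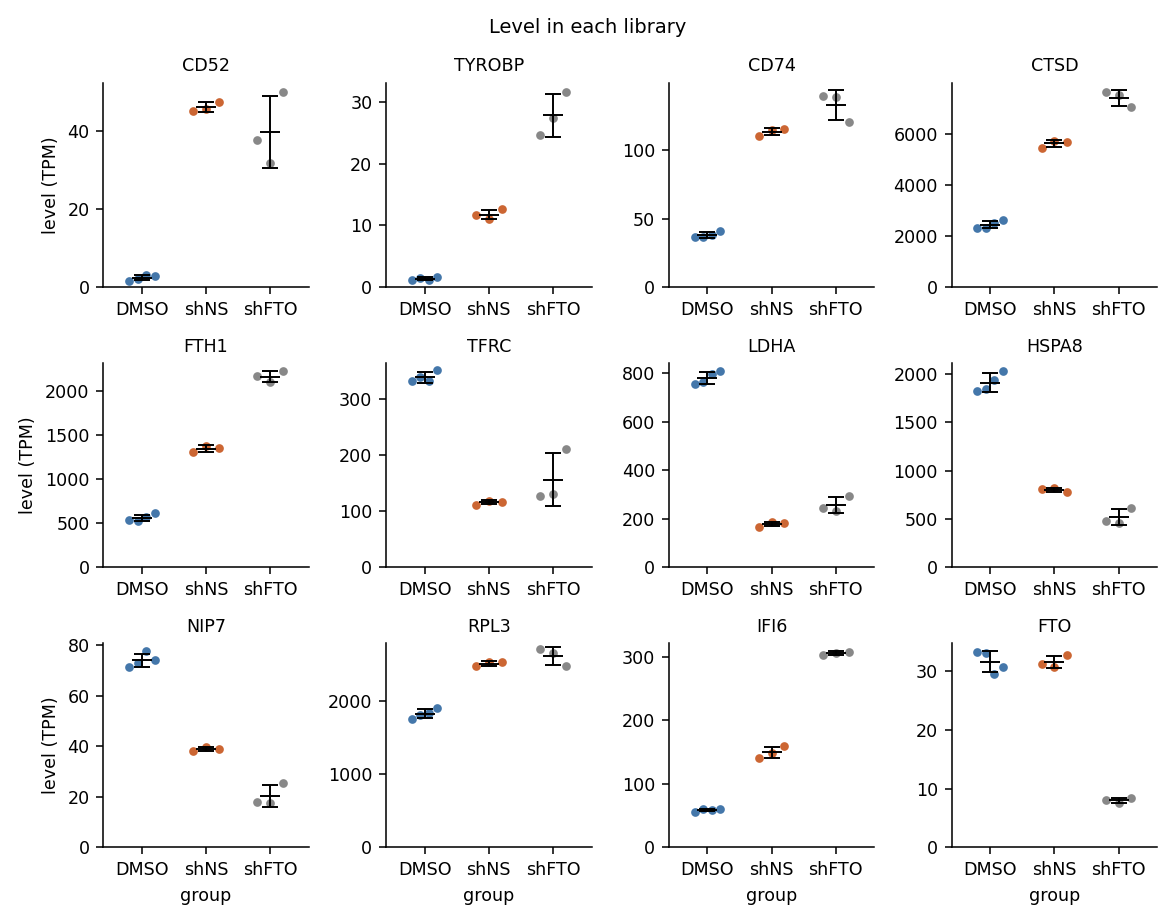
Level in TPM (y axis, linear from 0) in each DMSO, shNS and shFTO library for 12 genes; points are libraries and black bars are the mean with SD. For every gene except FTO the DMSO and shNS points do not overlap; FTO has means of 31.6 TPM in both groups.

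Genes for the parts of the ribosome and genes for building it differed by opposite signs. A ribosome is assembled in the nucleolus from ribosomal RNA and ribosomal proteins by a separate set of processing factors that are not part of the finished particle. Of 75 tested cytosolic ribosomal protein genes, 61 were higher in shNS and none lower, with a median of 0.22, although quantile normalization, which gives every library the same spread of values, gave 36 higher and 13 lower with a median of 0.07. RPL3, at the heart of the large subunit, read 1764, 1816, 1845 and 1908 TPM in DMSO against 2485, 2538 and 2539 TPM in shNS. Its groups did not overlap, and the difference was 0.46 ± 0.04. RPLP1, a stalk protein that recruits elongation factors, differed by 0.47 ± 0.04, while RPS2 differed by 0.17 ± 0.04 and reversed to -0.16 under quantile normalization. Together these genes made up 14.9% ± 0.7 (SD, n = 4) of all TPM in DMSO and 17.3% ± 0.3 (n = 3) in shNS. The libraries did not overlap, and the exact two-sided permutation test gave p = 0.0571, the smallest that 3 against 4 libraries allow, and 0.0762 after adjustment over 4 shares. Ribosomal protein genes have many processed pseudogenes, so single members are uncertain.

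The processing factors were all lower. All 29 tested ribosome assembly genes passed with lower levels in shNS, a median of -0.49, and between 25 and 28 of them did so under median scaling, quantile normalization and the length and GC correction described below. NIP7, which acts in pre-rRNA processing, read 71.2, 72.9, 77.5 and 74.2 TPM in DMSO against 38.2, 39.5 and 39.1 TPM in shNS. No library of one group came near the other, and the difference was -0.91 ± 0.09, adjusted p = 1.06e-06 by limma. NOP58, a core protein of box C/D snoRNPs, which methylate ribosomal RNA, fell from 167 TPM ± 5 to 96.3 ± 4.3. NPM1 and NCL, the abundant nucleolar proteins nucleophosmin and nucleolin, differed by -0.44 ± 0.05 and -0.55 ± 0.09. MYC, a factor known to act on many of these genes, was at 297 TPM ± 18 and 285 ± 3 and did not pass (difference -0.06 ± 0.14, adjusted p = 0.741 by limma). GAS5, a long noncoding RNA whose introns hold snoRNAs, was at 345 TPM ± 18 in DMSO and 581 ± 11 in shNS.

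The E-box, the letters CACGTG bound by MYC and its relatives, was looked for on both strands in RefSeq promoters (GRCh38.p14), each 250 bases before to 50 bases after a gene's start. It occurred in 8 of the 23 assembly genes that have a promoter in that table, 34.8%, against 7.43% of all 27305 promoters. WDR43, a scaffold of the small subunit processome, is shown because it holds this motif and fell from 127 TPM ± 3 to 76.0 ± 1.0; capitals mark the motif.
WDR43 promoter, chr2:28894417-28894716 (+ strand): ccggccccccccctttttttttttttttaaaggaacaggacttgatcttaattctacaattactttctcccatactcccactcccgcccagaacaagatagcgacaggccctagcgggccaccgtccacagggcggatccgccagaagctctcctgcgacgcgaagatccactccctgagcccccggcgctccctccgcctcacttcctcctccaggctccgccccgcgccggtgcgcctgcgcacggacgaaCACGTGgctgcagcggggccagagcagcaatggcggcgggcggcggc
A match is a description of the letters and not of binding. BYSL, FBL, MYBBP1A, NOP2, PES1, RRP9 and UTP20 were the other assembly genes with the motif.

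**Figure D3:**
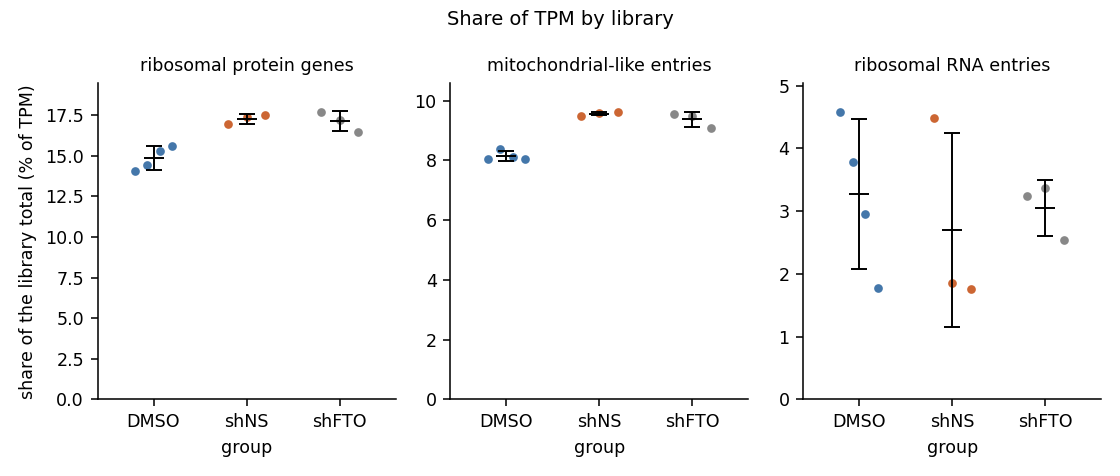
Share of all TPM (y axis, percent, from 0) taken by 75 ribosomal protein genes, 12 mitochondrial-like entries and 4 ribosomal RNA entries in each library; black bars are the mean with SD. Ribosomal protein and mitochondrial-like shares separate DMSO from shNS, and ribosomal RNA shares overlap.

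Translation factors were divided. Of 46 tested, 11 were higher and 25 lower, with a median of -0.18. EIF3L, a subunit of the initiation factor eIF3, rose from 311 TPM ± 8 to 438 ± 6, and EEF1A1 and EEF2, the main elongation factors, differed by 0.34 ± 0.04 and 0.32 ± 0.05. EIF1AX, which helps the ribosome find the start codon, EIF4G2, an initiation scaffold, and ETF1, the release factor that reads stop codons, differed by -0.86, -0.83 and -0.67.

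Chaperones of the cytosol and of the endoplasmic reticulum were lower in control hairpin cells. Chaperones hold and fold other proteins, and the heat shock factor HSF1 drives those of the cytosol. Of 21 tested heat shock genes, 17 were lower and 1 higher in shNS, and the median of -0.60 was the lowest of the 39 lists. HSPA8, the constitutive HSP70, read 1824, 1848, 1941 and 2032 TPM in DMSO and 808, 815 and 776 TPM in shNS. The groups did not overlap and differed by -1.25 ± 0.08, adjusted p = 9.36e-09 by limma. DNAJA1, a partner that hands substrates to HSP70, was at 168 TPM ± 1 and 77.1 ± 1.3. DNAJB6 and HSP90AB1, a second such partner and the constitutive cytosolic HSP90, differed by -0.93 ± 0.08 and -0.34 ± 0.06. Of 20 tested ER chaperones and folding enzymes, 16 were lower and 1 higher, with a median of -0.31. CALR read 2402, 2494, 2592 and 2655 TPM in DMSO and 1604, 1678 and 1681 TPM in shNS, which did not overlap. CANX, its membrane-bound relative, and PDIA4, a disulfide isomerase, differed by -0.50 and -0.32. P4HB, another isomerase, did not pass, and its difference changed sign under quantile normalization, to -0.14.

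The HSPA8 promoter is shown because it carries the heat shock element core GAANNTTC, where N is any base, more than once. This core, read on both strands, occurred in 7 of 20 heat shock genes with a RefSeq promoter (35%) and in 6.87% of all promoters. It was added to the motifs searched after the values were seen. Capitals mark the core.
HSPA8 promoter, chr11:123062087-123062386 (- strand): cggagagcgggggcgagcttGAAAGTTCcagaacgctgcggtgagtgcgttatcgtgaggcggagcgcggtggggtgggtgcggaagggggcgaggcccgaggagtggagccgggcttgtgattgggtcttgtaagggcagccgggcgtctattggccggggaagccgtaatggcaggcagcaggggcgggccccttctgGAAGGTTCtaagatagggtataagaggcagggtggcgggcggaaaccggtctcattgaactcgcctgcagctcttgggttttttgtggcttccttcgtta
DNAJA1 and DNAJB6 were also among the genes with the core.

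Replication and mitosis genes were mostly lower in control hairpin cells. Before DNA synthesis the MCM helicase is loaded by ORC1 and CDC6, and E2F factors switch these genes on. Of 35 tested replication genes, 29 were lower and 2 higher in shNS, with a median of -0.38. MCM6, a helicase subunit, read 593, 602, 552 and 563 TPM in DMSO and 374, 398 and 391 TPM in shNS. The highest shNS library stayed well below the lowest DMSO library, and the difference was -0.57 ± 0.08, adjusted p = 1.70e-05 by limma. CDC6 was at 66.0 TPM ± 1.1 and 37.2 ± 1.2, ORC1 at 86.5 ± 1.7 and 66.1 ± 2.0, and RFC3, of the complex that loads the sliding clamp, at 68.6 ± 2.1 and 46.0 ± 1.2. PCNA, the clamp itself, differed by -0.28 ± 0.07. Of 30 tested mitosis genes, 22 were lower and 3 higher, with a median of -0.27. KIF11, the motor that separates spindle poles, was at 97.7 TPM ± 8.3 and 57.5 ± 2.8. MKI67, the proliferation antigen, was at 321 ± 30 and 225 ± 10, and BIRC5, or survivin, at 40.1 ± 1.1 and 25.7 ± 1.3. TPX2, a spindle assembly factor, differed by -0.20 ± 0.04 and no longer passed under quantile normalization.

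The MCM6 promoter is shown for the E2F site TTTCGCGC, which it holds on the opposite strand, where it reads GCGCGAAA. On either strand the site occurred in 4 of 31 replication genes with a RefSeq promoter (12.9%) and in 0.546% of all promoters. Capitals mark the site.
MCM6 promoter, chr2:135876394-135876693 (- strand): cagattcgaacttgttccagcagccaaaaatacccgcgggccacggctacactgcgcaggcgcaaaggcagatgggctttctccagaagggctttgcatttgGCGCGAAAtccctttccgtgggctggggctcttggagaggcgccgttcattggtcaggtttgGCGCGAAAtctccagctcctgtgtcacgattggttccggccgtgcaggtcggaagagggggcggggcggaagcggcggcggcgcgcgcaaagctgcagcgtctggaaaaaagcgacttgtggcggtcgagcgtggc
The other replication genes with the site were MCM2, MCM3 and MCM7. Of 24 mitosis genes with a promoter, 18 (75%) held the CCAAT box, the letters CCAAT on either strand, against 35.7% of all promoters.

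Enzymes and readers of DNA and histone marks were mostly lower as well. The list holds mainly genes of silencing, such as DNA methyltransferases, Polycomb subunits and deacetylases, but also the TET enzymes that remove DNA methylation and writers of activating histone methylation. Of 26 tested, 19 were lower and 2 higher, with a median of -0.35. EED, a core subunit of the Polycomb complex that methylates histone H3, was at 28.8 TPM ± 1.2 and 19.8 ± 0.5. SIRT1 and HDAC2, which remove acetyl groups from histones and other proteins, differed by -0.75 ± 0.05 and -0.42 ± 0.03. Histone genes themselves were mostly not called: of 18 tested, 1 was higher and 4 lower, with a median of -0.23. There were 7 lower without shNS replicate 1 and 2 without shNS replicate 2. Replication-dependent histone mRNAs lack a poly(A) tail, so poly(A)-enriched RNA measures them poorly.

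The glycolytic enzyme LDHA had the largest fall of all named coding genes. Lactate dehydrogenase turns pyruvate into lactate and is a tetramer of the products of LDHA and LDHB. LDHA, at chr11:18394563-18408425 (RefSeq, GRCh38.p14), read 754, 764, 797 and 809 TPM in DMSO and 168, 186 and 181 TPM in shNS. The shNS libraries lay far below all DMSO libraries, and the difference was -2.13 ± 0.06, adjusted p = 1.33e-11 by limma. LDHB read 984, 983, 990 and 1019 TPM in DMSO and 951, 996 and 1002 TPM in shNS. Its groups overlapped, and the difference of -0.02 ± 0.03 did not pass, although the quantile-normalized value of -0.07 did. The other enzymes of the pathway differed far less: of 24 tested glycolysis genes, 12 were lower and 7 higher, with a median of -0.20. ENO1, enolase, and HK1, the hexokinase of most tissues, differed by -0.33 ± 0.06 and -0.61 ± 0.04. HK3, the hexokinase of myeloid cells, was higher, at 5.13 TPM ± 0.12 and 11.5 ± 0.4. GAPDH differed by 0.11 ± 0.03 as deposited and by -0.04 after quantile normalization, so no direction is given for it.

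Of 49 tested nuclear genes of oxidative phosphorylation, 20 were higher and 13 lower, with a median of 0.05. Quantile normalization gave 31 higher and 4 lower, with a median of 0.14. CYCS, cytochrome c, stood out with 139 TPM ± 4 in DMSO and 79.5 ± 1.3 in shNS. The 12 entries that resemble mitochondrial sequence made up 8.15% ± 0.16 of TPM in DMSO and 9.57% ± 0.06 in shNS (exact permutation p = 0.0571, the smallest possible, and 0.0762 adjusted). They do not measure the mitochondrial genes as such. Hypoxia genes counted 5 higher and 4 lower of 17 (6 and 2 after quantile normalization), with a median of -0.03. On the log2 scale NDRG1 was higher by 0.42 and BNIP3 lower by 0.45. Lipid lists gave no direction that held under other scalings. As deposited, 6 of 24 cholesterol genes were higher and 9 lower, with a median of -0.09, but quantile normalization gave 8 higher and 4 lower, and 7 were higher and 6 lower without shNS replicate 1. Of 13 fatty acid synthesis genes, 3 passed in each direction as deposited, with a median of 0.06. After quantile normalization 7 were higher and 3 lower, and after the length and GC correction 5 and 2. SCD, the desaturase that makes oleate, was at 995 TPM ± 21 and 1272 ± 44.

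Genes that respond to interferon went both ways in shNS, more often higher than lower. A cell that senses foreign nucleic acid makes type I interferon, whose receptor activates STAT2 and its partners to bind the interferon-stimulated response element. Of 31 tested interferon response genes, 16 were higher and 5 lower in shNS, with a median of 0.21. Only 10 were higher when shNS replicate 3 was left out, 3 were lower without DMSO replicate 1, and 18 were higher and 2 lower after the length and GC correction. IFI6, a mitochondrial and ER protein induced by interferon, read 56.2, 61.0, 58.2 and 59.8 TPM in DMSO and 141, 148 and 159 TPM in shNS. The groups lay well apart and differed by 1.33 ± 0.05, adjusted p = 9.38e-11 by limma. STAT2 was at 19.4 TPM ± 1.7 and 41.0 ± 0.1. USP18, which strips the ubiquitin-like protein ISG15 and damps the interferon receptor, went the other way, reading 8.76, 8.98, 9.30 and 10.4 TPM in DMSO and 3.47, 3.38 and 3.84 TPM in shNS.

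The IFI6 promoter is shown because it carries the core of that element, GAAANNGAA with N for any base, 3 times. Read on both strands, the core occurred in 16 of 25 interferon genes with a RefSeq promoter (64%) and in 8.29% of all promoters. Capitals mark the core.
IFI6 promoter, chr1:27672143-27672442 (- strand): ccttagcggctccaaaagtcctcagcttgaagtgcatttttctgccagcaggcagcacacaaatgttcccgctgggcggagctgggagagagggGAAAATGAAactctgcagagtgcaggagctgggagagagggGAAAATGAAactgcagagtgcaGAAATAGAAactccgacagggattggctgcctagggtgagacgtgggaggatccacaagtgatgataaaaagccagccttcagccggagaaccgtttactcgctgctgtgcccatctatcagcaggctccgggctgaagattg
DDX60, which was higher by 0.54 ± 0.09, also holds the core.

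Sensors and restriction factors showed no common direction. Of 20 tested sensors of foreign RNA and DNA, 6 were higher and 6 lower, with a median of 0.01. DHX58, an RNA helicase that tunes this response, was at 0.65 TPM ± 0.08 and 2.61 ± 0.08, and TLR9, the endosomal receptor for DNA, at 4.30 ± 0.34 and 1.96 ± 0.08. MYD88, the adaptor below TLR9, differed by -0.38 ± 0.04. Of 24 tested factors that restrict retroviruses, 9 were higher and 6 lower, with a median of 0.12. APOBEC3G, which edits viral DNA as it is copied, was at 5.07 TPM ± 0.55 and 11.7 ± 0.4. TRIM28 and PPHLN1, which serve in the silencing of integrated proviruses, differed by -0.50 ± 0.05 and -0.58 ± 0.06.

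The machinery that processes hairpins moved in both directions. DGCR8 holds the primary transcript for cutting, XPO5 exports the hairpin, and the AGO proteins carry the small RNA to its targets. Of 16 tested genes, 4 were higher and 9 lower, with a median of -0.18. DGCR8 read 40.2, 40.7, 40.6 and 40.4 TPM in DMSO and 30.6, 29.1 and 29.7 TPM in shNS, which did not overlap. AGO4 was higher, at 17.4 TPM ± 0.5 and 28.4 ± 0.6, as was MOV10, an RNA helicase that binds AGO proteins, at 24.98 ± 2.23 and 44.1 ± 0.4. XPO5 differed by -0.11 ± 0.04 and changed sign under quantile normalization, to 0.03.

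FTO itself showed no difference between the 2 controls that passed the test. It read 33.3, 33.1, 29.6 and 30.7 TPM in DMSO and 31.3, 30.8 and 32.8 TPM in shNS, overlapping ranges with a difference of 0.00 ± 0.06 (95% confidence interval from -0.12 to 0.12, adjusted p = 0.999 by limma). After the length and GC correction the difference was 0.14 and passed the test. In the shFTO libraries, the group whose infection and selection the protocol describes, the mean was 7.99 TPM, so the targeted gene follows the labels. ALKBH5, the other known m6A demethylase, was lower in shNS, at 83.6 TPM ± 2.0 against 63.7 ± 1.7.

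m6A is a methyl mark on mRNA that a writer complex around METTL3 and METTL14 sets and that YTH-domain proteins read. All 18 tested writers and readers passed, 16 lower and 2 higher in shNS, with a median of -0.32, and 12 were lower after the length and GC correction. YTHDF2, the reader that brings marked mRNA to decay, read 116, 123, 120 and 123 TPM in DMSO and 73.6, 75.4 and 75.6 TPM in shNS. Its groups were well separated, with a difference of -0.68 ± 0.04. IGF2BP3, a reader that stabilizes targets, was at 37.0 TPM ± 2.8 and 21.4 ± 0.9, and HNRNPC, an RNA-binding protein that responds to the mark's effect on structure, at 526 ± 9 and 373 ± 10. METTL3 went the other way, at 43.0 ± 1.7 and 52.7 ± 2.8. METTL14 differed by -0.21 ± 0.06, did not pass without shNS replicate 1, and reversed to 0.03 after the length and GC correction. Of 9 tested genes that earlier work tied to FTO in leukaemia, 1 was higher and 3 lower, with a median of -0.02. ASB2, LDHB, MYC and PFKP were among the 5 that did not pass. CEBPA and RARA, the factors of granulocyte maturation and retinoid response, differed by -0.26 ± 0.03 and -0.21 ± 0.06, and the second did not pass under quantile normalization.

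Regulators of the leukaemic state were divided by class. Of 18 tested genes of the HOXA cluster and of self-renewal, 10 were higher and 5 lower in shNS, with a median of 0.23. HOXA9, the homeobox factor that many acute leukaemias depend on, read 84.6, 86.2, 87.4 and 87.5 TPM in DMSO and 165, 163 and 167 TPM in shNS. The libraries did not overlap and differed by 0.93 ± 0.07. HOXA10 and HOXA3 differed by 0.35 ± 0.05 and 0.57 ± 0.07. BMI1, the Polycomb protein that keeps stem cells dividing, fell from 416, 407, 362 and 373 TPM in DMSO to 137, 153 and 150 TPM in shNS. Its ranges were far apart and differed by -1.40 ± 0.07, adjusted p = 6.26e-10 by limma. Of 23 tested myeloid transcription factors, 4 were higher and 11 lower, with a median of -0.17. RUNX1, required for blood formation, was at 28.7 TPM ± 1.3 and 14.7 ± 0.8, IRF8, a factor of monocyte development, at 138 ± 3 and 85.3 ± 2.5, and ID1, which blocks helix-loop-helix factors, at 10.2 ± 0.8 and 5.05 ± 0.15. CEBPB, which acts in macrophages and in stress, was higher, at 70.7 ± 3.2 and 106 ± 4.

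Granule protein genes, which promyelocytes switch on, counted 9 higher and 2 lower of 15, with a median of 0.40. AZU1, azurocidin, was at 223 TPM ± 16 in DMSO and 374 ± 13 in shNS. BPI, which kills Gram-negative bacteria, was at 2.13 ± 0.18 and 4.59 ± 0.37. The defensin DEFA1 read 0.92, 0.54, 0.40 and 0.14 TPM in DMSO and 18.9, 16.6 and 21.4 TPM in shNS, and it was listed at 0 in all 3 shFTO libraries. The entry DEFA1B held the same values in every library, and DEFA3, a near-identical copy, read 0 to 0.41 TPM in DMSO and 0.54 to 2.13 TPM in shNS. How reads were divided among these copies is uncertain, so these values cannot be read as the level of any 1 copy.

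Genes of the ATF4 stress response were more often higher than lower in shNS, and p53 targets and apoptosis regulators were mixed. ATF4 is translated when amino acids are short or the ER is stressed, and it turns on amino acid enzymes and then DDIT3, or CHOP. Of 29 tested ATF4 response genes, 16 were higher and 7 lower in shNS, with a median of 0.26. DDIT3 read 26.7, 26.1, 28.6 and 27.1 TPM in DMSO and 65.1, 66.1 and 70.2 TPM in shNS. The groups were clearly separate, with a difference of 1.28 ± 0.09. PCK2, a mitochondrial enzyme of this response, was at 35.8 TPM ± 1.7 and 64.2 ± 1.8, and ATF5, a related factor, at 38.9 ± 3.5 and 19.1 ± 0.5. The mRNA of ATF4 itself did not pass (0.09 ± 0.05, adjusted p = 0.101 by limma).

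Of 27 tested p53 targets, 11 were higher and 7 lower, with a median of 0.13. BBC3, or PUMA, which triggers apoptosis, was at 10.8 TPM ± 0.5 and 24.0 ± 0.9, and BTG2, which restrains growth, at 6.37 ± 0.33 and 11.7 ± 0.6. MDM2, the ligase that removes p53, was lower, reading 31.2, 30.4, 27.6 and 28.6 TPM in DMSO and 14.6, 14.5 and 14.9 TPM in shNS. Of 29 tested apoptosis regulators, 7 were higher and 9 lower, with a median of -0.03, against 12 higher and 11 lower with a median of 0.06 after the length and GC correction. BMF, another BH3-only protein, was at 9.64 TPM ± 0.34 and 23.5 ± 0.4. Of 8 tested efflux transporters, 1 was higher and 1 lower, with a median of 0.04. ABCB1, the pump that expels many drugs, was listed at 0 in all 7 libraries.

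Inflammatory and immediate early genes gave no single direction, while adhesion genes were more often higher in shNS. Of 23 tested inflammatory genes, 8 were higher and 6 lower, with a median of 0.00. CCL5, a chemokine that draws T cells and monocytes, was at 144 TPM ± 7 and 257 ± 3, while NFKB1, which encodes the p50 subunit, was lower. Of 27 immediate early genes, 7 were higher and 9 lower, with a median of -0.05, and quantile normalization gave 9 higher and 8 lower. Without DMSO replicate 3, and likewise without shNS replicate 1, 7 were higher and 6 lower. DUSP5 and SPRY2, which restrain the ERK pathway, differed by -0.77 ± 0.08 and -0.76 ± 0.09. Of 23 tested adhesion genes, 13 were higher and 3 lower, with a median of 0.21. CD82, a tetraspanin, rose from 23.0 TPM ± 2.5 to 67.2 ± 1.6, and ICAM3, a ligand of leukocyte integrins, from 27.5 ± 0.2 to 47.8 ± 2.2.

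**Figure D4:**
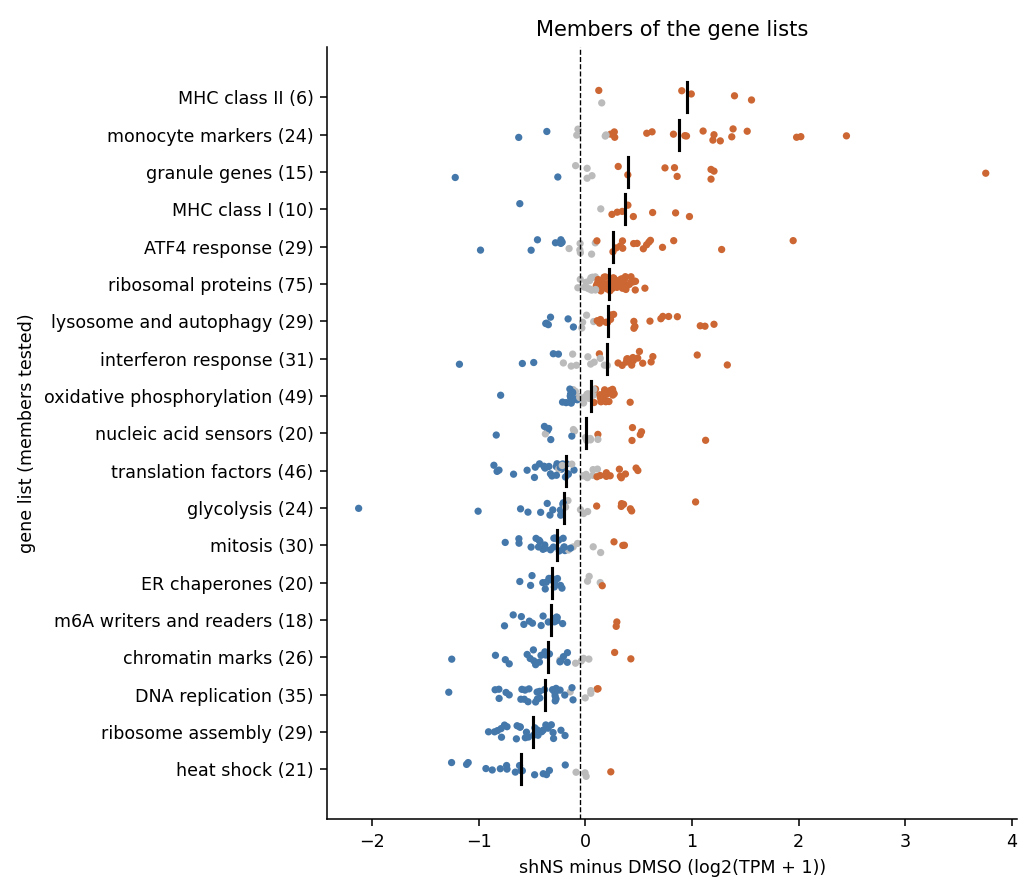
Difference shNS minus DMSO in log2(TPM + 1) (x axis) of each tested member of 19 of the lists (y axis, with the number tested); orange and blue members passed limma's test, grey ones did not, black ticks are list medians and the dashed line is the median of all genes tested, -0.05. Lists of maturation and antigen presentation lie to the right, and ribosome assembly and heat shock genes to the left.

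The genes with the largest differences included several secreted proteins at low levels. CCL18, a chemokine of alternatively activated macrophages, read 0.21, 0.28, 0.74 and 0.62 TPM in DMSO and 11.6, 12.3 and 9.76 TPM in shNS, a difference of 3.08 ± 0.15. MMP1, the interstitial collagenase, was at 7.53 TPM ± 0.90 and 47.8 ± 0.6. GDF15, a stress cytokine, was at 0.29 ± 0.19 and 5.40 ± 0.60. Among intracellular proteins, VWA5A was at 2.07 TPM ± 0.37 and 23.7 ± 0.5, and TRIM63, a ubiquitin ligase best known from muscle, at 0.30 ± 0.16 and 6.48 ± 0.18. No overlap between the groups was a condition for choosing the largest rises and falls, so it is not a separate result for these genes. The same condition applied to CD52, TYROBP, LDHA, TFRC, BMI1 and DEFA1 above and to the falls named next.

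On the lower side, RAB8A, a GTPase that steers vesicles to the membrane, read 211, 214, 218 and 217 TPM in DMSO and 69.0, 72.5 and 67.9 TPM in shNS. POU2F2, the octamer factor OCT2, read 95.0, 92.7, 94.0 and 94.4 TPM against 31.4, 31.6 and 32.1 TPM. Both were separated by many times the spread within a group, with differences of -1.61 ± 0.05 and -1.54 ± 0.04. FAM13B was at 36.0 TPM ± 1.2 and 10.2 ± 0.4, and LIMA1, an actin-binding protein, at 25.2 ± 1.9 and 8.13 ± 0.40. SERPINB2, an inhibitor of plasminogen activators made by monocytes, was at 12.9 ± 1.7 and 4.23 ± 0.16.

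The shFTO libraries, from cells that also carried a hairpin, give a second set of levels for the same genes. They were tested against shNS, where 56.4% of genes passed, so the shNS libraries are common to both comparisons and the values are only set side by side. CD52 had a mean of 39.7 TPM in shFTO, near its shNS level (difference shFTO minus shNS -0.23, adjusted p = 0.333 by limma), and MARCO was at 69.0 TPM (0.02, adjusted p = 0.820). FAM13B was at 11.9 TPM, LDHA at 257 TPM, TFRC at 156 TPM and RAB8A at 124 TPM, each below its DMSO mean. Others stood much farther from DMSO in shFTO than in shNS: LYZ was at 2226 TPM (shFTO minus shNS 3.76, adjusted p = 1.15e-13 by limma) and CCL18 at 101 TPM (3.06, adjusted p = 1.29e-09). SERPINB2 and LIMA1, lower in shNS, had means of 110 and 30.5 TPM in shFTO, above their DMSO means. PSMB8, an immunoproteasome subunit, was at 107 TPM in DMSO, 147 TPM in shNS and 104 TPM in shFTO, where its libraries overlapped those of DMSO. No test of shFTO against DMSO was run.

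Few entries were present in 1 group and absent from the other. With at least 2 TPM in every library of a group and at most 0.2 TPM in every library of the other, 2 entries were found only in shNS and 2 only in DMSO. MIR3190 read 12.4, 8.27 and 6.20 TPM in shNS and was listed at 0 in all DMSO libraries, and RNVU1-7, a variant U1 small nuclear RNA, read 3.36, 2.18 and 3.63 TPM in shNS. MIR3191 read 5.79, 13.2, 2.59 and 7.49 TPM in DMSO and was listed at 0 in all shNS libraries, as was MIR6777, with 4.71, 8.57, 4.21 and 4.06 TPM in DMSO. MIR3190 and MIR3191 are hairpins on opposite strands of chromosome 19 that cover the same bases, and their RefSeq sequences (GRCh38.p14) are shown for that reason; capitals mark the 76 bases that pair as reverse complements.
MIR3190 hairpin, chr19:47226942-47227021 (+ strand): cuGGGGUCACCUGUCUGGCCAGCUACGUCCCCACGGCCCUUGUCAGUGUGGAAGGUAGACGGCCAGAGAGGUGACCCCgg
MIR3191 hairpin, chr19:47226944-47227019 (- strand): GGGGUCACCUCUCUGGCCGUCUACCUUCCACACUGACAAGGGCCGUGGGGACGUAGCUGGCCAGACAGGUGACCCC
The sum of both entries was 2.59 to 13.2 TPM in DMSO and 6.20 to 12.4 TPM in shNS, and it overlapped between the groups. The sources used here do not state whether reads were counted by strand, so reads of the 2 hairpins cannot be told apart, and no call is made on either. Among all 246 tested microRNA hairpin entries 4.47% were higher and 3.66% lower, far less than for all genes, with a median SE of 0.58 against 0.07.

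Small nucleolar RNA entries had lower values in shNS more often than higher ones. Of 233 tested, 12% passed as lower and 3.86% as higher, with a median of -0.33. Both shares were below those of all genes tested, 33.6% lower and 23.0% higher. The median SE of these entries was 0.44 against 0.07 for all genes, so single entries are uncertain. Poly(A) enrichment removes most mature snoRNAs, so these entries hold what remained of them or of their host transcripts. Of 1229 long noncoding genes, 15.9% were higher and 14.2% lower, with a median of 0.01. LINC00847 and LINC00926 were the named ones with small p beside GAS5, at 12.5 TPM ± 0.8 and 113 ± 4 in DMSO and 25.2 ± 0.8 and 190 ± 11 in shNS.

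Transcript composition moved with the difference across all genes. From the lowest to the highest decile of GC content the median difference went from -0.24 to 0.06, and from the second to the longest decile of transcript length it went from 0.03 to -0.15. These deciles hold the 14022 tested genes with a length and GC value in GENCODE release 29. After a smooth correction for length and GC, chosen after the data were seen, 8387 genes passed, 3929 higher and 4458 lower, and 262 of them differed at least 2-fold. The lists named above have their own composition: the median GC was 41.2% for m6A writers and readers and 51.7% for ribosome assembly genes, whose median difference was -0.55 after correction. With the correction, 17 of 24 monocyte and macrophage markers were higher and 2 lower, 5 of 6 class II genes were higher, and 18 of 21 heat shock and 29 of 35 replication genes were lower. Ribosomal protein genes, with a median length of 1181 bases, changed more. Of 75, 43 were higher and 4 lower with the correction, against 61 and none as deposited, and their median was 0.17. Medians by chromosome ran from -0.15 on chromosome 13 to 0.02 on chromosome 22.

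**Figure D5:**
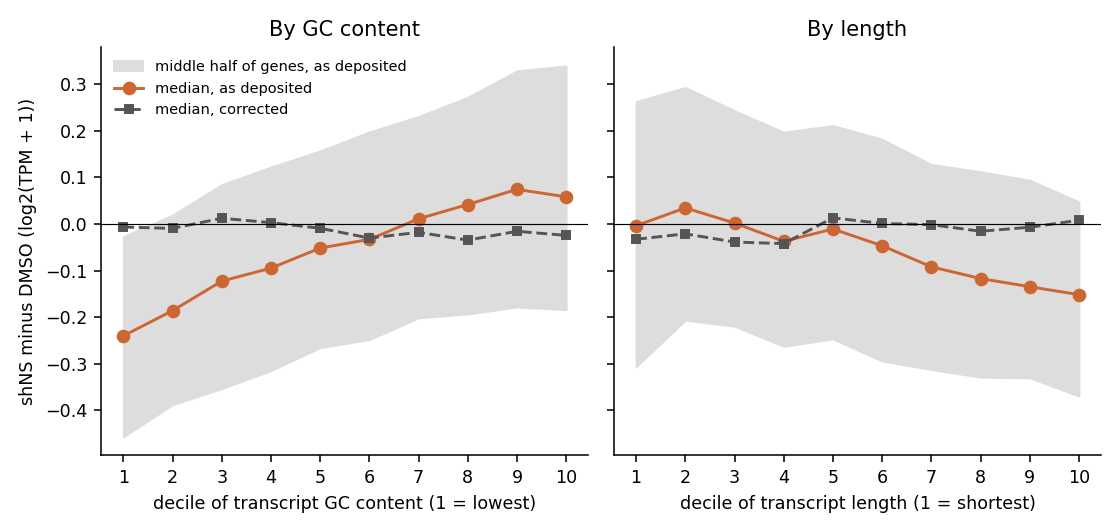
Median difference shNS minus DMSO in log2(TPM + 1) (y axis) by decile of GC content and of transcript length (x axes); the grey band spans the quartiles of genes in each decile, and squares are medians after correction. As deposited the median runs from -0.24 to 0.06 with GC content and from 0.03 down to -0.15 with length.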

How the data were processed

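RNA of NOMO-1 cells was sequenced after poly(A) enrichment, per the labels. The authors made TPM values from their reads and deposited them, a column to a library. RSEM 1.2.31 and GRCh38 stand in the submitters' processing notes. The aligner is not given in the sources used here, nor is the annotation. Without read counts the depth stays unknown. Columns were matched by name to 4 DMSO and 3 shNS libraries, and no library repeated another. The other 9 libraries only helped to estimate the spread, apart from the shFTO values given.

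Entries reaching 1 TPM in 3 or more libraries were analysed as log2(TPM + 1). A linear model with 5 group means over 16 libraries was fitted by limma 3.58.1 (R 4.3.3), using lmFit and a trended eBayes. Tests were two-sided with Benjamini-Hochberg adjustment across the genes tested, at 0.05. The fit was tested on simulated data. Shares of TPM were compared by exact two-sided permutation of 3 against 4 libraries. The rest ran in Python 3.11.15 (matplotlib 3.10.9, numpy 2.4.6, scipy 1.17.1, pandas 2.3.3). Promoters and hairpins came from RefSeq (GRCh38.p14), and where a gene had several promoters the first listed was shown.

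Named genes were drawn from a rule that selected 243 genes, not all of which are printed. It took the 12 largest rises and 12 largest falls with a mean of at least 5 TPM in the higher group and no overlap. From each list it took up to 4 members by adjusted p and the 2 highest. It also took all genes tied to FTO and the m6A writers and readers that passed. Entries on in 1 group and off in the other, and up to 5 long noncoding genes, completed it. The 39 gene lists were chosen with earlier results of these data known. Genes named outside that rule are the other carriers of a motif and a further set chosen after their values were seen. That set is CD33, PTPRC, MPO, CD14, CD163, FCGR3A, MRC1, CD3E, EPCAM, HBA1, VCAN, ABCB1 and DEFA3. The alternatives were other pseudocounts, filters, scalings and fits, each library left out, a replicate block, and a correction for length and GC added after the data were seen.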

Additional observations from a re-analysis of the deposited data

Results flagged for a closer look

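Single DMSO libraries stood apart from the other 3 for a few values, with a gap larger than Dixon's 95% critical value allows. CD82 read 19.31 TPM in DMSO replicate 4 against 24.1 to 24.3 TPM in the others. NFKB1 read 33.91 TPM and TLR9 3.79 TPM in DMSO replicate 3. RNVU1-7 read 0.04 TPM and DEFA3 0.41 TPM in DMSO replicate 3, and each was listed at 0 in the others. With the others at 0, any value above 0 would be flagged, so neither flag tells anything about that library. The mitochondrial-like share was 8.39% in DMSO replicate 2 against 8.04% to 8.10% in the others. Chance flags about 1 in 20 groups, and 153 values were examined.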

How the results depend on the processing

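The count of genes that passed ranged from 7654 to 9100 over the alternatives other than leaving a library out, and from 7576 to 8133 when each library in turn was left out. The count at least 2-fold apart rose from 313 to 697 with a pseudocount of 0.1, since low genes then count for more, and was 303 to 325 with each library left out. No scaling moved the share of higher against lower calls by more than 10 percentage points over all genes. Counts within the gene lists were less stable: 62 of 1326 moved by over 1.5 times, and the majority of calls turned for 3 lists, the apoptosis, cholesterol and immediate early genes. Of the named genes, GAPDH changed sign under quantile normalization (-0.041) and the length and GC correction (-0.014), METTL14 under that correction (0.0264), and P4HB (-0.14), RPS2 (-0.16) and XPO5 (0.0264) under quantile normalization; the cause was not tested.

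The replicate block, which treats replicates of the same number as a pair, left 8398 genes that passed, 3334 higher and 5064 lower. The numbers give no pairing: deviations of same-numbered shNS and DMSO libraries correlated at -0.05, -0.03 and 0.07 across genes.

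With no counts in the table, no counting error can be given, and genes near 1 TPM are the least certain. With 3 against 4 libraries an exact test of a single value cannot go below p = 0.0571. TPM are shares, so a rise of abundant genes lowers the values of the rest. No library carries the hairpin vector without selection, or the solvent with the vector, as far as the labels say, so the separate parts of the difference were not measured.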
